A study of Mus musculus with 2 samples.

Results

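The BCL2 family genes that set survival or death at the mitochondrion were examined in small intestinal TCRαβ+CD8αα+ intraepithelial lymphocytes (IELs). The set held 10 genes, and each was found by the RefSeq accession that the array files give for its probes. Together they were measured by 14 probes on both arrays, out of 20887 genes with a named probe. They were 4 pro-survival genes (*Bcl2*, *Bcl2l1*, *Mcl1* and *Bcl2l2*), 2 effectors (*Bax* and *Bak1*) and 4 BH3-only genes (*Bcl2l11*, *Bid*, *Bad* and *Bbc3*). The rule names the genes and uses no measured value, but it was written with earlier results of these arrays known.

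Proteins of the BCL2 family decide whether the outer membrane of the mitochondrion is opened. The pro-survival proteins hold the effectors BAX and BAK in check, the BH3-only proteins either neutralize the pro-survival proteins or activate the effectors, and the opened membrane releases cytochrome c, which starts the caspases. In IELs, IL-15 signaling through IL2RB is known to sustain survival through pro-survival members of the family. Much of the control of these proteins lies in phosphorylation, cleavage and protein turnover, to which RNA levels are blind.

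RNA of sorted cells was compared between Control mice, labelled *Rbpj*f/f, and RFF4 mice, which carried CD4-Cre with *Rbpj*f/f. CD4-Cre acts from the thymic stage at which cells express CD4 onward, so it also acts in other αβ T cells, and RBPJ is the DNA-binding partner of the Notch intracellular domain. Both groups were C57BL/6 mice of 8 to 12 weeks, male and female pooled, and the *Rbpj*f/f allele is labelled in both. The labels name no Cre for Control, whereas the study's text describes controls with wild-type *Rbpj* and CD4-Cre, so the presence of Cre in the control pool is not settled by the sources used here. RNA from several isolations was pooled within each genotype, 150 ng was labelled, and 1 Agilent 1-color array was hybridized per genotype. With 2 arrays in all, on the same slide and scan, no test between genotypes, p-value or standard error could be given, and every difference below describes these 2 pools.

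The array labelled RFF4 was the dimmer of the pair. Of 59305 gene spots, 57.2% were well above background on the Control array and 49.7% on the array labelled RFF4, and the median signal over background was 9.47 and 5.78. Levels are therefore given as log2 of the scanner signal relative to the 75th percentile of the same array, and differences as RFF4 minus Control. *Rbpj* itself was not lower on the array labelled RFF4 with this scaling, at 1.96 on Control and 2.28 on RFF4 for the brighter probe and −1.44 and −0.62 for the other. The differences of 0.32 and 0.82 became −0.80 and −0.30 with spike-in controls set equal, and the files do not state whether these probes lie in the floxed exons. The Notch target genes *Heyl* and *Dtx1* differed by −3.80 and −3.63.

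Cell markers were compared because the sorted pools can hold other cells. All 10 T cell markers with a probe were well above background on both arrays, with a summed level of 1209 on Control and 1503 on RFF4 in units of the 75th percentile, and a median difference of 0.32. They did not move together, with differences from −0.21 to 2.22, the last being *Cd2*, an adhesion receptor. All 15 epithelial markers were above the median of all genes on the array labelled RFF4 (median difference 1.59, range 0.31 to 1.89), and their sum was 223 on Control and 675 on RFF4. The 13 macrophage and dendritic cell markers with a difference, of 14 with a probe, were also above it (median at least 2.24, range 0.20 to 3.57, with 2 of the 13 values lower bounds because Control was not well above background), with sums of 76.4 and 170. Those sums rest mostly on *Itgax* (5.52 and 5.73) and *Itgam* (4.32 and 5.24), and on RFF4 also on *H2-Ab1* (5.40) and *Cd74* (4.87). *Lyz2*, *Cx3cr1*, *Adgre1*, *Mertk*, *C1qa*, *C1qb* and *C1qc* were below 0 on both arrays. Of 8 B and plasma cell markers, 4 were not well above background on either array, among them *Cd79a* and *Pax5*. The other 4 had a median difference of 0.94 with a range of −0.26 to 1.79, and the sums were 26.5 and 57.8. *Cd4* was at 1.67 and 1.80, and *Cd8b1*, which marks the CD8αβ cells left out of the sort, was at −3.52 on Control and not well above background on RFF4. The part of these markers in the differences of the BCL2 family genes was not tested. In such pools, fewer cells of a type and less RNA per cell cannot be told apart.

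With the 75th-percentile scaling, none of the 10 genes differed by 2-fold or more (0 higher and 0 lower), whereas 12.3% of the 13513 genes with a difference were higher past 2-fold and 5.05% were lower. That split of 1667 higher and 683 lower genes was 1318 and 1087 when each array's median was used for scaling, and 198 and 8056 when 8 spike-in controls were set equal. With that last scaling 5 of the 10 genes were past 2-fold lower and 0 higher, next to 56.7% and 1.39% of all genes. The 5 were *Bcl2* (−1.73), *Bbc3* (−1.42), *Bcl2l11* (−1.38), *Bcl2l2* (−1.35) and *Mcl1* (−1.32). At 1.5-fold, *Bad* was the 1 gene of the set that was higher, against 20.1% of all genes, and *Bcl2* the 1 that was lower, against 15.0%. The median difference of the set was −0.02, next to −0.01 for all genes. Of the 10 genes, 7 lay between the lower and upper quartiles of all genes (−0.37 and 0.44), and *Bcl2*, *Bad* and *Bak1* lay outside. Relative to the median of all genes, 5 were lower (*Bcl2*, *Mcl1*, *Bcl2l2*, *Bcl2l11* and *Bbc3*) and 5 higher (*Bcl2l1*, *Bax*, *Bak1*, *Bid* and *Bad*). The constant scalings left these sides unchanged. Of the other 7 alternatives, 6 gave the same 5 genes below, whereas without a filter on dim probes *Bax* was also below. Before that median is taken off, the signs of *Bcl2l1*, *Bax*, *Bak1*, *Bid* and *Bad* all turned with the spike-in scaling, which moved the median of all genes by −1.09 (median scaling moved it by −0.17, T cell marker scaling by −0.32 and leaving out the filter by 0.27). The sign of *Bax* also turned with median scaling and normexp background correction, and those of *Bax* and *Bcl2l1* with scaling on T cell markers.

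**Figure D1:**
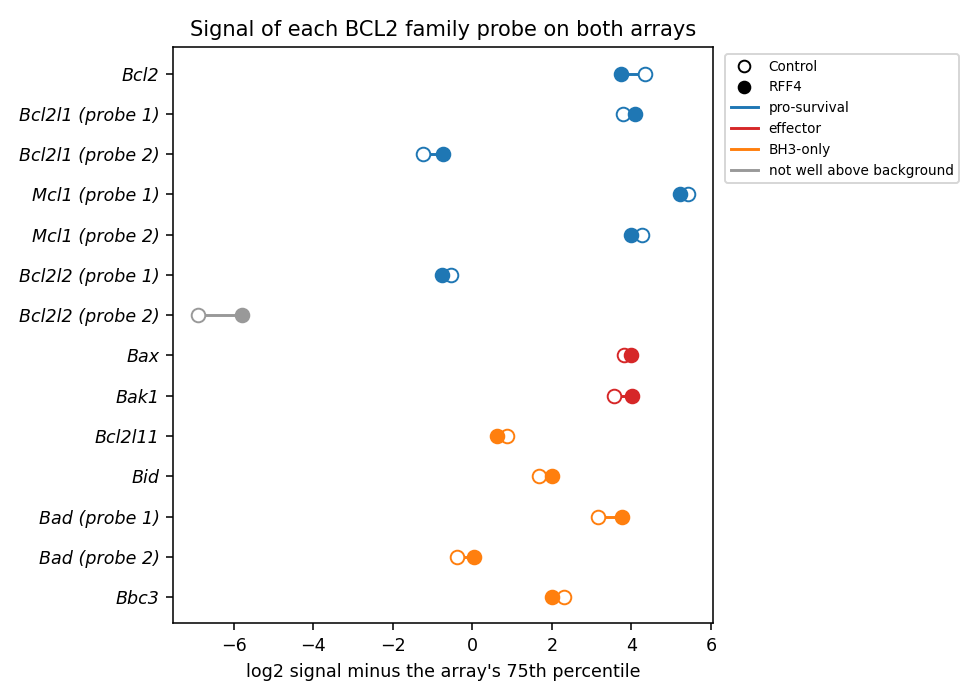
Level of each of the 14 probes on the Control array and on the array labelled RFF4, as log2 signal relative to the 75th percentile of the array, with 1 array per genotype and no error bars. Open circles are Control, filled circles RFF4, colors the roles and gray the *Bcl2l2* probe that was not well above background on either array, and levels of different probes cannot be compared with each other.

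No replicate array was available, so the technical SD of a difference was taken from spots of the same probe on the same array. Over 236 probes with at least 10 spots on Control and 212 on RFF4, the spot SD was 0.09 on each array, which gives a technical SD of 0.13 for a difference. It holds no spread between mice or pools. By this measure 7 of the 10 differences were larger than 2 technical SDs, next to 65.9% of all genes. The other 3 were *Bax*, *Mcl1* and *Bcl2l2*. For the 13 of 14 probes that were well above background on both arrays, the scanner software gave an error of 10% to 10.2% of the signal, and signals ran from 3.04 to 668 times background. On the log2 scale this error is larger than the spot SD, and with it the differences would span fewer SDs.

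Among the pro-survival genes, *Bcl2* was the lowest relative to Control and *Bcl2l1* the 1 gene above the median of all genes. *Bcl2*, the founding member of the family, was at 4.35 on Control and 3.74 on RFF4. The difference of −0.61 was 1.52-fold and 4.77 technical SDs, and 14.3% of genes had a lower difference. A difference at least as far from 0, in either direction, was held by 33.9% of all genes. The single *Bcl2* probe is assigned by the files to 1 of the 2 curated RefSeq transcripts of the gene.

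*Bcl2l1* encodes BCL-XL and, from a shorter splice form, the pro-death BCL-XS. Its brighter probe was at 3.79 on Control and 4.09 on RFF4, a difference of 0.30 or 1.23-fold, with 69.0% of genes lower. Its other probe was at −1.24 and −0.75, a difference of 0.49. Both probes were higher on the array labelled RFF4 with this scaling, and the gene has 5 curated transcripts, so the probes do not show which splice form was measured.

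*Mcl1*, whose protein is turned over rapidly, was at 5.44 on Control and 5.23 on RFF4 by its brighter probe and at 4.28 and 3.99 by the other. The differences were −0.20 and −0.29, and 36.5% of genes had a lower difference than the brighter probe. *Bcl2l2*, which encodes BCL-W, was at −0.53 on Control and −0.76 on RFF4, a difference of −0.23 with 34.3% of genes lower. Its second probe was not well above background on either array and gave no difference. The median difference of the 4 pro-survival genes was −0.21.

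Both effectors were above the median of all genes. *Bax* was at 3.82 on Control and 3.99 on RFF4. Its difference of 0.17 was 1.12-fold and 1.32 technical SDs, 62.0% of genes were lower, and its sign depended on the scaling as given above. *Bak1*, which encodes BAK, was at 3.56 on Control and 4.01 on RFF4. Its difference of 0.45 was 1.36-fold and 3.53 technical SDs, with 75.3% of genes lower, and it turned to −0.67 with the spike-in scaling alone.

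The 4 BH3-only genes lay on both sides of the median of all genes, and their own median difference was 0.03. *Bad*, whose protein is held inactive by phosphorylation downstream of growth factors, was at 3.15 on Control and 3.76 on RFF4 by its brighter probe. The difference of 0.60 was 1.52-fold and 4.76 technical SDs, and 80.4% of genes were lower. Its other probe was at −0.40 and 0.04, a difference of 0.43. *Bid*, which is activated when caspase 8 cleaves it, was at 1.69 on Control and 2.01 on RFF4, a difference of 0.33 with 70.3% of genes lower.

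*Bcl2l11* encodes BIM, the BH3-only protein that removes T cells deprived of cytokine. It was at 0.88 on Control and 0.62 on RFF4, a difference of −0.26 or 1.20-fold, with 32.1% of genes lower. Its single probe is assigned to 1 of 5 curated transcripts. *Bbc3*, which encodes the p53 target PUMA, was at 2.31 on Control and 2.02 on RFF4, a difference of −0.30 or 1.23-fold with 29.9% of genes lower. Thus *Bad* and *Bid* were above the median of all genes, and *Bcl2l11* and *Bbc3* below it.

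**Figure D2:**
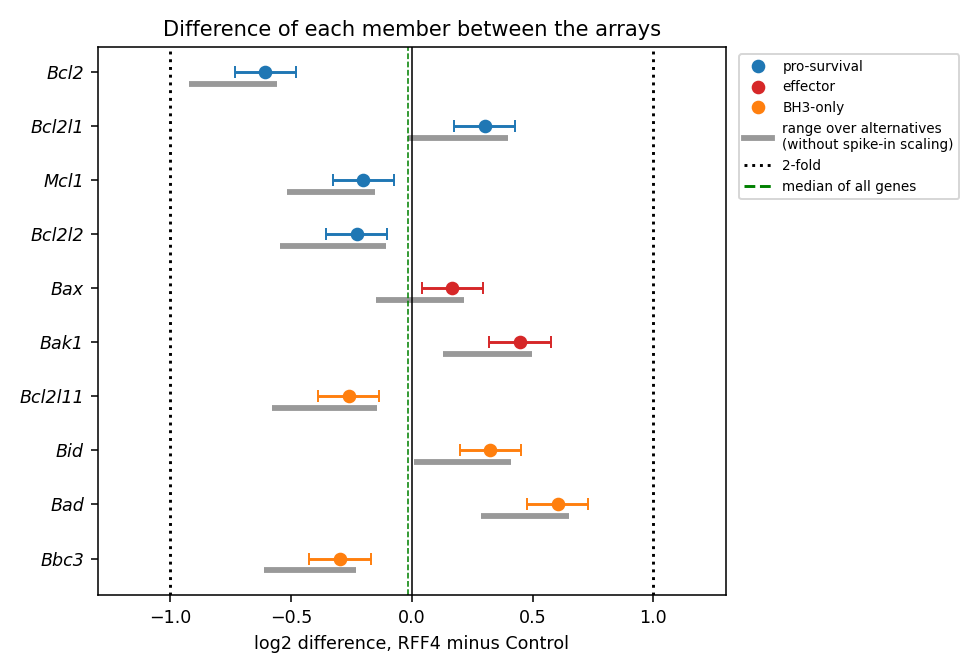
Difference RFF4 minus Control of the 10 genes by role on the log2 scale, 1 array per genotype, with the brightest probe per gene, bars of 1 technical SD (0.13) that cover spots on an array only, gray lines for the range over the alternatives without the spike-in scaling, and a dashed line at the median of all genes. *Bcl2* (−0.61) and *Bad* (0.60) are the extremes and no gene reaches 2-fold with the scaling plotted, whereas with the spike-in scaling all 10 genes are below 0 and 5 of them past 2-fold lower.

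The 3 genes with a pair of probes well above background gave differences of the same sign from both, with gaps of 0.19 for *Bcl2l1*, 0.09 for *Mcl1* and 0.17 for *Bad*. Over 2784 genes with 2 such probes, the median gap was 0.19 and the 90th percentile 0.76. The gaps of the set were thus close to this median or below it, and a difference of 0.60, as in *Bad* or *Bcl2*, lay below the 90th percentile of gaps between probes of the same gene. *Bcl2* has no second probe with which its value could be compared.

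**Figure D3:**
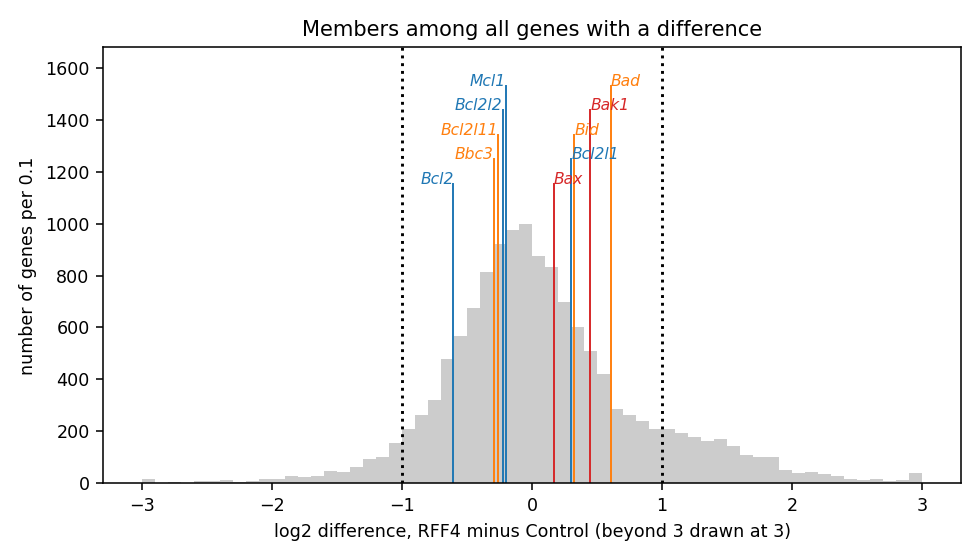
Distribution of RFF4 minus Control on the log2 scale over the 13513 genes with a difference, 1 array per genotype, with the 10 BCL2 family genes marked by role color and dotted lines at 2-fold. The genes spread from the 14.3% position of *Bcl2* to the 80.4% position of *Bad*, and 7 of 10 lie between the quartiles.

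Ratios between death and survival genes do not depend on a constant scaling of the arrays, so they were computed for all 24 pairs of an effector or BH3-only gene with a pro-survival gene. The ratio was higher on the array labelled RFF4 in 17 pairs and lower in 7, with a median log2 change of 0.36 and a technical SD of 0.18 per pair. The pairs share genes and are not independent. *Bad* over *Bcl2* differed by 1.21 (2.31-fold) and *Bak1* over *Bcl2* by 1.05 (2.07-fold), and these 2 of the 24 pairs were past 2-fold, next to 32.3% of all pairs of genes with a difference. With normexp *Bak1* over *Bcl2* was 0.98 and 1 pair was past 2-fold, and with cyclic loess *Bid* over *Bcl2* was 1.07 and 3 pairs were. *Bax* over *Bcl2*, the ratio most often quoted for this family, differed by 0.77 (1.71-fold). *Bid*, *Bcl2l11* and *Bbc3* over *Bcl2* differed by 0.93, 0.34 and 0.31.

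The ratios differed with the pro-survival gene in the denominator. They were higher on the array labelled RFF4 for 6 of 6 genes over *Bcl2*, 4 of 6 over *Mcl1*, 4 of 6 over *Bcl2l2* and 3 of 6 over *Bcl2l1*, counts that follow from the order of the 10 single differences, of which that of *Bcl2* was the lowest. Of the 7 lower ratios, 5 were within 1 technical SD of 0, and the lowest changes were −0.56 for *Bcl2l11* over *Bcl2l1* and −0.60 for *Bbc3* over *Bcl2l1*. *Bcl2l11* over *Mcl1* differed by −0.06, a sign that turned with cyclic loess (0.20), quantile normalization (0.12) and normexp (0.07). In all, 5 pairs near 0 turned sign in at least 1 alternative. They were *Bcl2l11* and *Bbc3* over *Mcl1* and over *Bcl2l2*, and *Bid* over *Bcl2l1*, and the number of higher ratios ran from 16 with the mean of all probes to 21 with quantile normalization. Over the 12 alternatives *Bax* over *Bcl2* ranged from 0.75 to 0.78, *Bad* over *Bcl2* from 1.12 to 1.25 and *Bcl2l11* over *Bcl2* from 0.34 to 0.52.

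**Figure D4:**
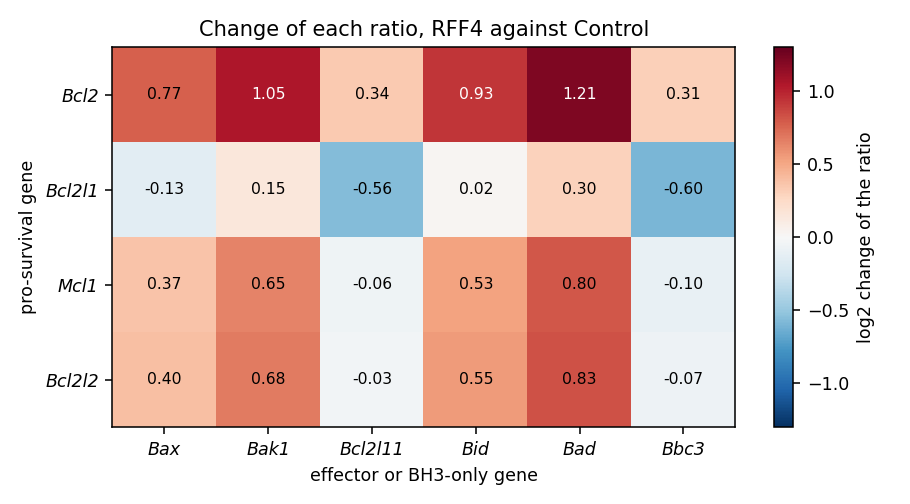
Log2 change of the ratio of each effector or BH3-only gene to each pro-survival gene, RFF4 minus Control, for the 24 pairs on 1 array per genotype. Ratios over *Bcl2* are all above 0 and reach 1.21 for *Bad*, while *Bcl2l11* and *Bbc3* over *Bcl2l1* are −0.56 and −0.60.

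RBPJ, the factor targeted by the deletion, binds the core TGGGAA, so upstream sequences are shown for *Bcl2*, the lowest gene of the set, and for the 3 genes that hold the core (*Bad*, *Bax* and *Bcl2l2*). The 250 bases before the start site were read from RefSeq (GRCm38.p6) on the coding strand, with each TGGGAA or its reverse complement TTCCCA in capitals. They are the *Bcl2* promoter at chr1:106714291-106714540 (minus strand), the first and second *Bad* promoters at chr19:6941611-6941860 and chr19:6942312-6942561 (plus strand), the *Bax* promoter at chr7:45466899-45467148 (minus strand) and the *Bcl2l2* promoter at chr14:54883175-54883424 (plus strand).
Bcl2: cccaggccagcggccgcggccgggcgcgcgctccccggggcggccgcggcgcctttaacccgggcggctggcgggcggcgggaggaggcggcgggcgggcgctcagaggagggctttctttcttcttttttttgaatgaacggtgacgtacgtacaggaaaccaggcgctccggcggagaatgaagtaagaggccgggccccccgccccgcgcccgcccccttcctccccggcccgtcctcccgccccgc
Bad, first: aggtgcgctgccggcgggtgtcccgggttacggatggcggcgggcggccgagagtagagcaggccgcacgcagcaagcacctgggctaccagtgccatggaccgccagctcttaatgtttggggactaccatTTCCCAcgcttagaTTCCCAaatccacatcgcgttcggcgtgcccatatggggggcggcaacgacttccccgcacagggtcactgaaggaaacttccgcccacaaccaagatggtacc
Bad, second: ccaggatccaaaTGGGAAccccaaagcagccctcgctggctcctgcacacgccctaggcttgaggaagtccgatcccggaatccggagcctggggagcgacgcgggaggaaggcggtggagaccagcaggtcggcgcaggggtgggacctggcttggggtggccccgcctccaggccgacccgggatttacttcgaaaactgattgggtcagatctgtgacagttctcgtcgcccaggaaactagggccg
Bax: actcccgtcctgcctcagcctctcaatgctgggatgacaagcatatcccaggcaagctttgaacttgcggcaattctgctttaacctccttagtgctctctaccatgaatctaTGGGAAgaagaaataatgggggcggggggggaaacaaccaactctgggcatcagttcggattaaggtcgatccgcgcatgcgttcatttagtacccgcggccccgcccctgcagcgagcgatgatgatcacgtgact
Bcl2l2: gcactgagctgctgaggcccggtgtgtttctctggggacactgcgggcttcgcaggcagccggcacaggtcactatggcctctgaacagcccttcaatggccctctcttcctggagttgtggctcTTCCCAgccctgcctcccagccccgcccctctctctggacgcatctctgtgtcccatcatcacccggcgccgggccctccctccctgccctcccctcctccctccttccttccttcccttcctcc

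The *Bcl2* window held none of these cores and was 74.8% G and C. The first *Bad* window held 2, the second 1, the *Bax* window 1 and the *Bcl2l2* window 1. Over both strands, 4 of the 16 promoters of the 10 genes held the core, next to 21.6% of 32851 promoters of the same length. Of the genes that hold it, *Bax* and *Bad* were above the median of all genes and *Bcl2l2* was below it. The forkhead core GTAAACA was found in 2 of the 16, a *Bcl2l11* and a *Bbc3* promoter, next to 3.17% of all promoters, and the STAT palindrome TTCNNNGAA in 0, next to 7.02%. TTCCCA can lie inside a STAT palindrome, which no promoter of the set held. A match describes letters only, and no binding was measured.

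Of 15 further BCL2 family genes, 13 had a named probe and 11 a difference, since *Bcl2l10* and *Hrk* were not well above background on either array. Of these 11, 7 were above the median of all genes and 4 below, 2 were higher past 2-fold and 0 lower (12.3% and 5.05% of all genes), and their median difference was 0.30. *Bcl2l14*, which encodes BCL-G, was at −0.87 on Control and 0.54 on RFF4, a difference of 1.41 (2.66-fold), and its other probe gave 1.24. *Bcl2l15* was at 3.35 and 4.50, a difference of 1.15 (2.22-fold), but its 3 probes ran from −0.44 to 1.89. Both calls depend on the processing, and neither gene was past 2-fold higher with the spike-in scaling. The epithelial markers moved with them by a median of 1.59, and the part of epithelial RNA in these values was not tested. *Bcl2a1d*, which encodes the pro-survival protein A1, was at 5.91 and 6.22, a difference of 0.30, and it is uncertain because its near-identical paralogs *Bcl2a1a* and *Bcl2a1b* had no matched probe. The BH3-only genes of this list with a difference were *Bik* at −3.19 on Control and −2.36 on RFF4 (0.83, 1.78-fold), *Bmf* (−0.17) and *Pmaip1* (0.04). These 3 and *Bcl2a1d* were named for their roles after their values were seen.

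All 20 genes of the caspase pathway list, most of which act downstream of the mitochondrion, had a difference, 13 below the median of all genes and 7 above it, with a median of −0.20. Past 2-fold 2 of the 20 were lower and 0 higher, next to 5.05% and 12.3% of all genes, and with the spike-in scaling 14 were lower, next to 56.7% of all genes with that scaling. *Dffb*, the nuclease that cuts DNA in apoptosis, was at 0.74 on Control and −0.53 on RFF4, a difference of −1.28 (2.42-fold). *Birc2*, which encodes the inhibitor of apoptosis cIAP1, was at 2.53 and 1.46, a difference of −1.07 (2.11-fold). With cyclic loess 1 of the pair was past 2-fold. *Apaf1*, the scaffold that cytochrome c turns into the apoptosome, was at 0.22 on Control and −0.69 on RFF4 (−0.91), while *Casp9*, the initiator it activates, was at 2.42 and 2.40 (−0.03). The caspase inhibitor *Xiap* was at 2.59 and 2.39 (−0.20). The other inhibitors of apoptosis, named after their values were seen, were *Birc3* (−0.71), *Birc6* (−0.62) and *Birc5*, a gene of dividing cells (0.81).

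**Figure D5:**
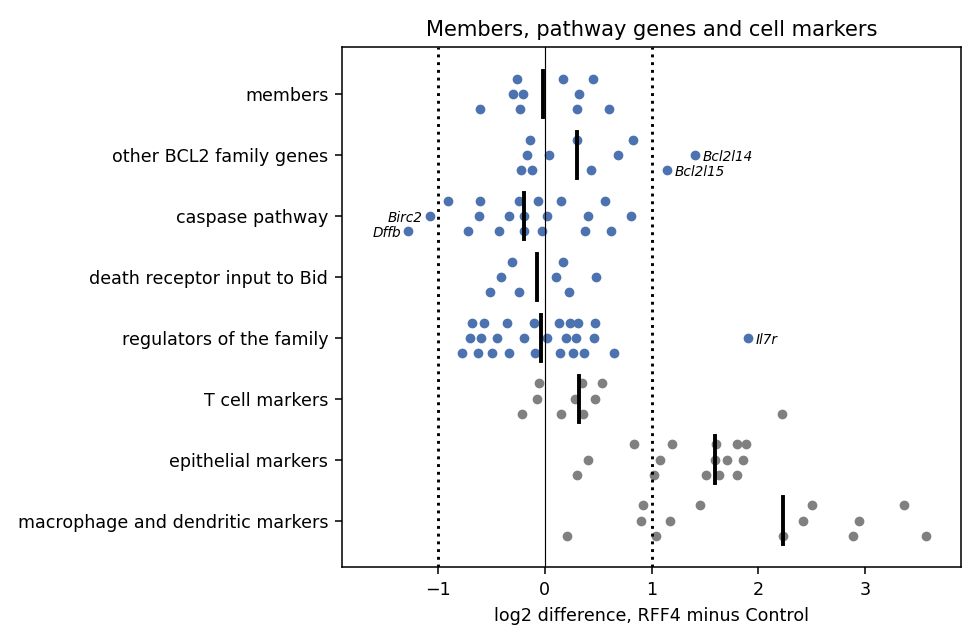
Difference RFF4 minus Control on the log2 scale for each gene of the set, of the pathway lists and of the cell marker lists, 1 array per genotype, with black bars at the list medians and dotted lines at 2-fold. The medians of the set (−0.02) and the pathway lists lie between −0.20 and 0.30 with the 75th-percentile scaling, and those of the epithelial and macrophage markers at 1.59 and at least 2.24.

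Of 27 genes that control the family, 26 had a difference, 13 above the median of all genes and 13 below it, with a median of −0.03. *Il7r*, the receptor chain through which IL-7 raises *Bcl2* in other T cells, was at −2.29 on Control and −0.38 on RFF4, a difference of 1.91 (3.75-fold), and it was the 1 of the 26 past 2-fold, next to 12.3% of all genes higher and 5.05% lower, but not past it with the spike-in scaling. *Il2rb*, the chain that signals for IL-15, differed by 0.20. The STAT5 genes *Stat5a* and *Stat5b* differed by −0.50 and −0.70, *Foxo1* by −0.60 and *Trp53* by 0.13. *Il2rb* and these 4 genes were named after their values were seen. All 8 genes of the death receptor route to BID had a difference, with 0 past 2-fold in either direction and a median of −0.07, among them *Fas* at 0.48 and *Cflar*, the inhibitor of caspase 8, at −0.52 with probes from −0.52 to 0.12. *Fas* and *Cflar* were also named after their values were seen.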

How the data were processed

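The deposited intensity values came from Agilent Feature Extraction 10.7.1.1, which took background off each spot and left the arrays unnormalized. The authors' table of normalized log2 values was made in GeneSpring with settings not given in the sources used here. Over 55661 probes compared, with 905 lines not centred on 0 left out, it equals the scanner log2 ratio plus a constant of 1.16 within 0.05. It served as an alternative, but that constant is close to the gap between the percentiles given next, so it nearly repeats the main scaling. Control and outlier spots were left out, log2 signals were scaled by the 75th percentile of each array (8.99 and 7.82), and spots of a probe were averaged. Probes were named by RefSeq accession. The brightest probe stood for a gene. Of genes well above background on 1 array, 558 of the 13513 with a difference got a bound, and 711 whose bound was under 1-fold were left out.

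The members, lists and motifs were chosen with earlier results of these data known. Named were all members, pathway genes past 2-fold, and *Casp9*, *Apaf1* and *Xiap* for their roles. *Rbpj*, *Heyl* and *Dtx1* were named to check the labels, and *Cd4* and *Cd8b1* as markers of cells left out of the sort. Further family genes without a difference or a matched probe were also named. Other single cell markers, and the pathway genes for which the text says so, were named after their values were seen. Values of certain listed genes are not reported here. Alternatives were median scaling, the percentile over probes well above background, quantile and cyclic loess normalization, spike-in scaling, normexp with an offset of 50, the mean of all probes, stricter or no filters on dim probes, outlier spots kept and a 1.5-fold threshold. Scaling on T cell markers and the ratios were added after seeing the data. The steps were tested on simulated data in which bright genes changed by more than any member did, so recovery of small differences was not covered. Versions were Python 3.11.15, numpy 2.4.6, pandas 2.3.3, scipy 1.17.1, matplotlib 3.10.9, R 4.3.3 and limma 3.58.1.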

Additional observations from a re-analysis of the deposited data

How the results depend on the processing

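No paired analysis was possible because each genotype has 1 array, and no array could be left out. The median difference of the 10 genes (−0.02) was −0.19 with median scaling, −0.33 with T cell marker scaling and −1.14 with spike-in controls set equal. At 1.5-fold, 1 of them was lower and 1 higher. The spike-in scaling put 5 of them past 2-fold lower, with 5 further family genes, 14 caspase pathway genes and 19 regulators or death receptor genes lower, and 0 further family genes and 0 regulators higher. Over all 14211 genes with a difference in that scaling it gave 8056 (56.7%) lower and 198 (1.39%) higher.

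The 2 of 11 further family genes higher past 2-fold became 1 with median scaling, 1 with normexp, 1 with the mean of all probes, and 4 of 13 without a filter or bound. The 2 of 20 caspase pathway genes lower became 1 with cyclic loess and 3 with median scaling. Median scaling gave 1087 lower genes in all, and no filter 6272 higher. At 1.5-fold, 4 of 11 further family genes were higher and 0 lower. Of 20 caspase pathway genes 6 were lower and 2 higher, and of 34 regulator or death receptor genes 5 were lower and 2 higher. Over all genes at this threshold 2025 (15.0%) were lower and 2721 (20.1%) higher. The cause was not tested. The percentile of *Bcl2* among all genes ranged from 7.71 to 14.8 and that of *Bad* from 61.8 to 82.6. For the other genes below the median it ranged from 18.7 to 34.3 (*Bbc3*), 24.6 to 39.5 (*Bcl2l11*), 25.6 to 36.6 (*Mcl1*) and 26.1 to 43.0 (*Bcl2l2*). For those above it the ranges were 46.4 to 65.1 (*Bax*), 52.1 to 73.6 (*Bcl2l1*), 53.1 to 75.2 (*Bid*) and 57.2 to 77.8 (*Bak1*).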
